A study of Homo sapiens with 60 samples.

Results

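Cholesterol and fatty acids are made by enzymes whose genes are switched on by the SREBP transcription factors. In textbook accounts of mammalian cells, SREBF2 encodes the factor that acts mainly on sterol genes and SREBF1 the factors that act mainly on fatty acid genes. SCAP escorts the precursors to the Golgi, where they are cleaved when sterol is low, and INSIG1 and INSIG2 hold the complex in the endoplasmic reticulum when sterol is high. INSIG1 is itself an SREBP target. A set of 33 genes of this pathway was followed, of 60675 genes in the deposited table. The set comprised 5 regulators (SREBF1, SREBF2, SCAP, INSIG1, INSIG2), 19 genes of the sterol branch and 9 of the fatty acid branch. The members were listed by name, with earlier results of these data known, and all 33 passed the filter on low counts.

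RNA was measured in SW1783 cells, a human astrocytoma cell line, after 24 h with herbal water extracts at 20, 100 or 500 µg/mL, called low, medium and high below. The extracts were Cinnamon (Cinnamomi Cortex), Astragalus (Astragali Radix), Rehmannia (Rehmanniae Radix Preparata), Cnidium (Cnidii Rhizoma), the formula Sagunja-tang, the formula Samul-tang, Angelica (Angelicae Gigantis Radix) and Paeonia (Paeoniae Radix). Each dose had 3 libraries for Cinnamon, Sagunja, Astragalus, Rehmannia and Cnidium, 2 for Samul, and 1 for Angelica and Paeonia, and the reference for all was 3 vehicle libraries, which the sample labels give as 0.1% DMSO. The labels name DMSO for the vehicle libraries and not for the extract libraries. Nothing in the labels says that replicates were separate cultures, so p-values measure only the spread between these libraries. Extracts and vehicle belonged to different sets of sample codes, so a set and an extract cannot be told apart in comparisons with vehicle, whereas the doses of an extract shared a set.

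The DNA just upstream of 5 members is shown because these genes carry the main contrasts below: INSIG1, MSMO1, SREBF2 and SCD were higher with Cinnamon at the high dose, and SREBF1 was not. Sequences are from RefSeq (GRCh38.p14), 5′ to 3′ on the gene's strand, and end before the first annotated transcript start of RefSeq and of GENCODE. INSIG1 is at chr7:155297628-155297775 (plus strand), MSMO1 at chr4:165327419-165327622 (plus), SREBF2 at chr22:41832855-41833078 (plus), SCD at chr10:100346983-100347123 (plus) and SREBF1 at chr17:17837003-17837236 (minus). Capitals mark, on either strand, the sterol regulatory element (SRE, TCACNCCAC), its core CACNCCAC, which lies inside it, and the CCAAT box (CCAAT).
INSIG1: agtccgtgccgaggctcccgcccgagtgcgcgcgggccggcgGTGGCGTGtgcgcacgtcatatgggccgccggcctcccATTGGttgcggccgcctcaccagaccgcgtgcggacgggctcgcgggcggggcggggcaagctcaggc
MSMO1: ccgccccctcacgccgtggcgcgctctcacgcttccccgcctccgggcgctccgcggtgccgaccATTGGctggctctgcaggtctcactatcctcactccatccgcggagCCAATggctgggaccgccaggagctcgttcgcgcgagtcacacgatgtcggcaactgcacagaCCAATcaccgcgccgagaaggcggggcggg
SREBF2: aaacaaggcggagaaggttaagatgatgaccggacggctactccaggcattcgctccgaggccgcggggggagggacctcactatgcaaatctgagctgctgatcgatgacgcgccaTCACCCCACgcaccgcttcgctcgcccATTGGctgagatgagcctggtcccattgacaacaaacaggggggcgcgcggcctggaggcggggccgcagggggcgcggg
SCD: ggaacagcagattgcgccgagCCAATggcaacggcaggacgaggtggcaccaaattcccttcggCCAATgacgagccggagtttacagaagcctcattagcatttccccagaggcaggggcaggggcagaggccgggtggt
SREBF1: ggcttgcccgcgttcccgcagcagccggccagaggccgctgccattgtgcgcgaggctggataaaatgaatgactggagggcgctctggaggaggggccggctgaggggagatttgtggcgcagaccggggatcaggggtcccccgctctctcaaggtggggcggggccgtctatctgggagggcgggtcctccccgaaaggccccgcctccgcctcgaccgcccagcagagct
The SREBF2 stretch holds a whole SRE, whereas the INSIG1 stretch holds a core match. A CCAAT box is present in each of the stretches of INSIG1, MSMO1, SREBF2 and SCD. The SCD stretch ends inside a core match that lies 114 bases before its RefSeq start. The SREBF1 stretch holds none of these letters.

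The 250 bases upstream of the RefSeq start were searched in the 29 members with a sequence entry (FASN, FDFT1, SQLE and ACAT2 were not searched) and in 27305 genes in all. A CCAAT box, bound by the factor NF-Y that works beside SREBP, was found in 20 of the 29 members, against 37% of all genes. By branch, it was found in 14 of 16 sterol members, 4 of 8 fatty acid members and 2 of 5 regulators. A GC box (GGGCGG) was found in 28 of the 29 members, against 46.2% of all genes. The whole SRE was found in 1 member, SREBF2, against 1.09% of all genes, and the SRE core in 6 members, against 5.89%. The E-box CACGTG was found in 3 members, against 7.73%. All members passed the filter on low counts, whereas the 27305 genes include genes that did not, so the sets are unlike. No background of like genes was searched. A match says that the letters are present, not that a factor binds there.

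Libraries held 20604792 to 29609799 expected counts, and levels are given as CPM, counts scaled to the total of each library corrected by its TMM factor. A change was called where the adjusted p was under 0.05 in an edgeR quasi-likelihood fit of 17516 genes (Benjamini-Hochberg over all genes tested). Library 1 of Sagunja at the low dose stood apart from its replicates: for its pairs the median squared difference over the variance expected from counting reached 23.88, whereas no other replicate pair was above 2.92. Its group shares 1 fit with all others, so results are also given without it. Of the 12 astrocyte markers listed, VIM, CD44, GJA1, CLU, SOX9 and SLC1A3 were at 11.7 CPM or more in every library, whereas GFAP was at 0 in 13 libraries and nowhere above 0.26 CPM, and AQP4 was at 0 in 38 libraries. Markers of other cell types were uneven: AIF1 of microglia, CDH5 of endothelium and EPCAM of epithelium stayed at or under 0.16 CPM in every library, whereas CD68 (89.4 to 229 CPM), PTPRC (3.99 to 12.6 CPM) and CSF1R (1.69 to 3.75 CPM) of microglia, SNAP25 (16.3 to 26.7 CPM) and SYT1 (22.8 to 40.7 CPM) of neurons and all 5 fibroblast and smooth muscle markers were detected in every library.

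Most of the pathway was higher with Cinnamon at the high dose. Against vehicle, 25 of the 33 members rose and 1 fell, where 22.8% of all genes tested were called, 11.8% higher and 10.9% lower. The members' median log2 fold change was 0.49, against 0.00 for all genes tested. Without library 1 of Sagunja at the low dose, 30 members rose and 2 fell, where 35.7% of all genes were called. Against Cinnamon at the low dose, which shares its set, 26 members rose and 1 fell, where 21.6% of all genes were called, 10.3% higher and 11.2% lower. At the medium dose no member passed the edgeR test against vehicle (2.29% of all genes called), nor at the low dose (1.06%). At an unadjusted p under 0.05 these doses had 6 and 1 members, and DESeq2 called none at either. The share of all genes under that unadjusted threshold is not given, here or for the extracts below. Such counts therefore do not show whether members stand out from other genes. Without the library that stands apart each dose had 2 called members, INSIG1 higher and ACLY lower at the medium dose (7.37% of all genes), and NSDHL and ACLY lower at the low dose (5.42%). The levels of marker genes also differed beside these changes. The summed level of 5 fibroblast and smooth muscle markers, COL1A1 and COL1A2 among them, was 4370 to 5110 CPM with Cinnamon at the high dose and 6590 to 6620 CPM in vehicle. The sum of 5 microglial markers, which is mostly CD68, was 206 to 235 CPM with Cinnamon at the high dose and 166 to 178 CPM in vehicle. The sum of the astrocyte markers was 8240 to 8850 CPM there and 8350 to 8880 CPM at the low dose, against 9060 to 9330 CPM in vehicle. That of the neuron markers was 43.2 to 48.7 CPM at the high dose, against 57.9 to 60.3 CPM in vehicle. The oligodendrocyte sum was higher, at 7.26 to 8.61 CPM against 5.78 to 6.23 CPM. The part of these marker differences in the pathway's change was not tested.

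**Figure D1:**
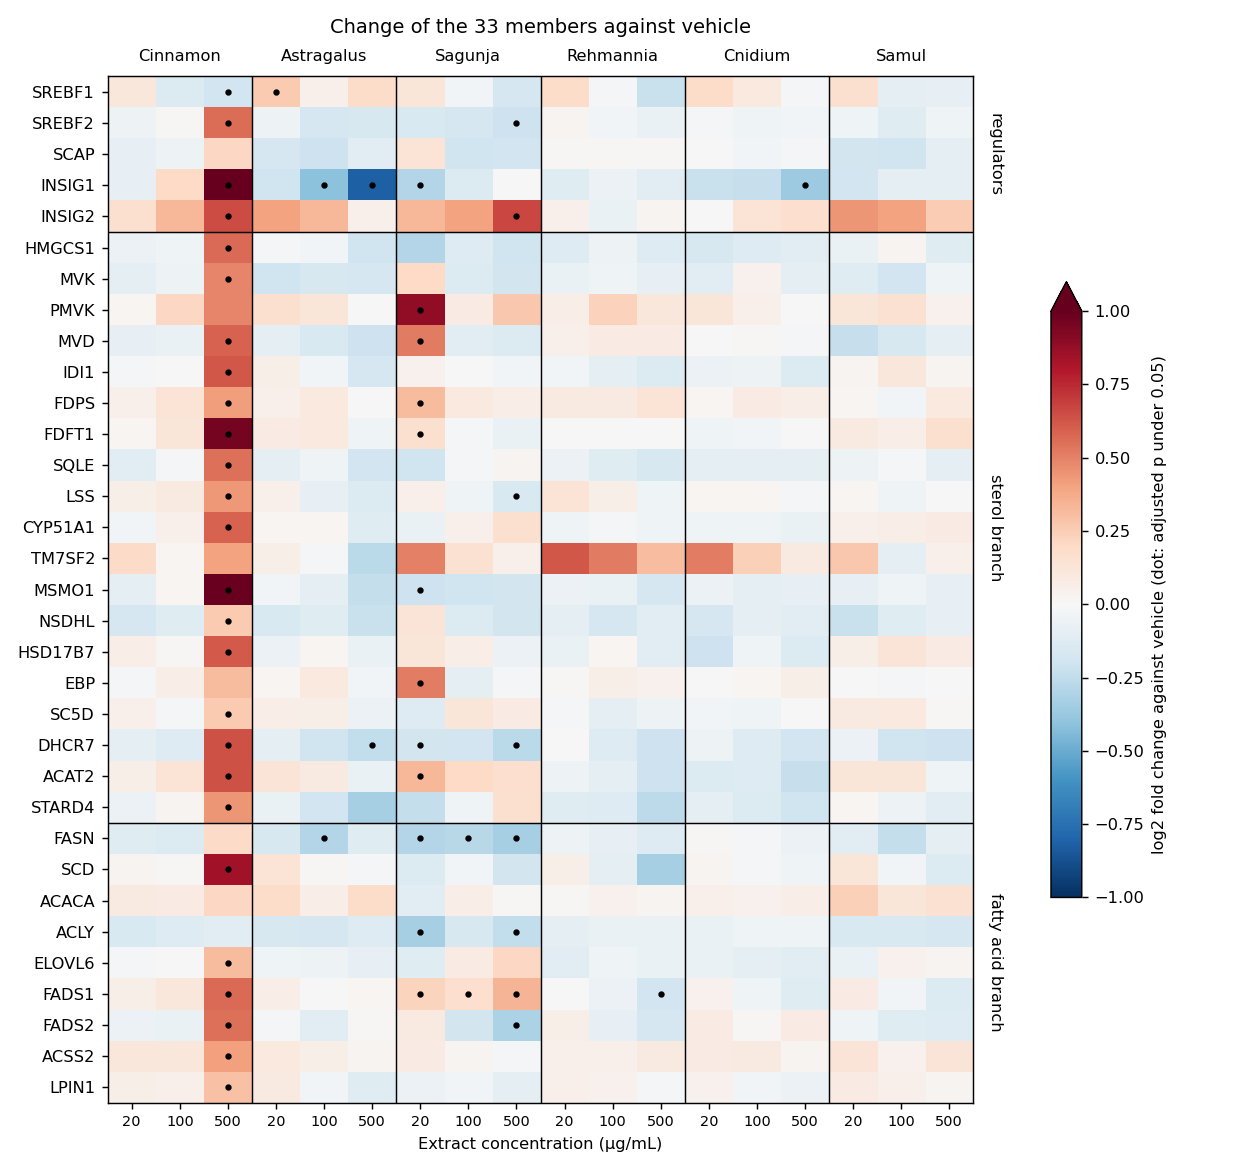
Log2 fold change of each member (rows, by branch) against vehicle for 6 extracts at 20, 100 and 500 µg/mL (columns); colour runs from -1 to 1, INSIG1 with Cinnamon at the high dose (1.78) lies beyond it, and dots mark adjusted p under 0.05 in the edgeR fit. The dots gather in the Cinnamon 500 µg/mL column, and INSIG1 is lower with Astragalus at 100 and 500 µg/mL; the Sagunja 20 µg/mL column includes the library that stands apart.

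Among the regulators, INSIG1 changed most. INSIG1 was at 521, 592 and 581 CPM with Cinnamon at the high dose, against 167, 169 and 161 CPM in vehicle. Its libraries at the medium dose held 178, 190 and 198 CPM and those at the low dose 155, 156 and 155 CPM. All high-dose libraries lay far above every other library of the extract and of vehicle. The log2 fold change against vehicle was 1.78 ± 0.07 (SE, n = 3 each; edgeR adjusted p = 1.15e-22), a 3.45-fold higher level. The medium-dose libraries also lay above the vehicle libraries without a call.

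SREBF2 was at 129, 131 and 121 CPM with Cinnamon at the high dose, against 87.2, 84.7 and 89.2 CPM in vehicle, with no overlap. Its log2 fold change was 0.56 ± 0.06 (SE; edgeR adjusted p = 2.1e-10). SREBF1 went the other way, with 36.4, 35.9 and 33.6 CPM at the high dose and 43.7, 39.2 and 38.7 CPM in vehicle. Its log2 fold change of -0.19 ± 0.07 was just called (edgeR adjusted p = 0.0416), and the call was lost under 6 of 13 alternatives, each single Cinnamon library left out among them (highest adjusted p = 0.262). Against the low dose, where SREBF1 stood at 43.5, 40.8 and 46.4 CPM, its change was -0.30 ± 0.07 (edgeR adjusted p = 0.000898) and was called under all 14 alternatives run. So the 2 SREBF genes moved in opposite directions at this dose. INSIG2, the second anchor of the complex, was at 13.6, 13.1 and 13.6 CPM with Cinnamon at the high dose, against 7.69, 9.53 and 8.69 CPM in vehicle (log2 fold change 0.65 ± 0.15, edgeR adjusted p = 0.00113). SCAP had 110, 95.6 and 95.3 CPM at the high dose and 87.4, 85.4 and 90.2 CPM in vehicle, a log2 difference of 0.21 ± 0.10 that did not pass (edgeR adjusted p = 0.124).

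**Figure D2:**
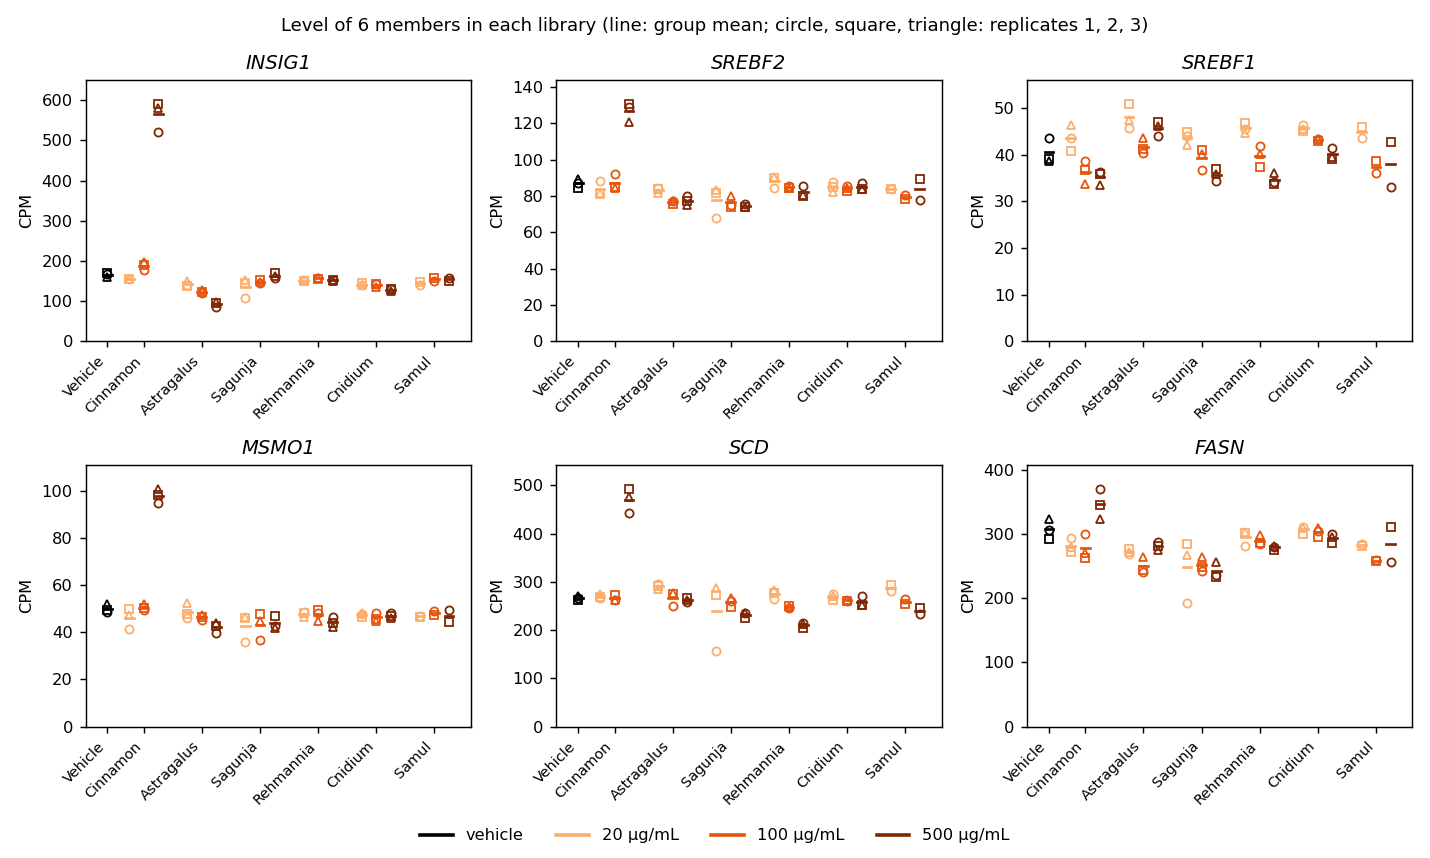
Level in CPM (from 0) of 6 members in each library of vehicle and of 6 extracts at 3 doses; symbols are replicates and lines group means. INSIG1, SREBF2, MSMO1 and SCD stand highest with Cinnamon at 500 µg/mL, where INSIG1 reaches 592 CPM, while SREBF1 lies at 33.6 to 36.4 CPM there; circles at the lightest Sagunja dose are the library that stands apart.

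The sterol branch rose along most of its length. With Cinnamon at the high dose 16 of its 19 genes rose against vehicle and none fell, where 11.8% of all genes tested rose and 10.9% fell. The median log2 fold change of the branch was 0.55, against 0.00 for all genes tested. The 3 that did not pass in edgeR were PMVK (0.49), EBP (0.32) and TM7SF2 (0.40), of which TM7SF2, a sterol reductase, was near 1 CPM in every group, with means of 1.24 CPM at the high dose and 0.949 CPM in vehicle. PMVK and EBP were called without the library that stands apart, in which both were higher than in any Cinnamon or vehicle library. MSMO1, a sterol demethylase, was at 94.9, 98.4 and 101 CPM at the high dose, against 48.7, 49.5 and 52.1 CPM in vehicle. Its level was 1.98-fold higher (log2 0.99 ± 0.08, edgeR adjusted p = 2.92e-13). FDFT1, squalene synthase and the first step committed to sterols, was at 170, 185 and 176 CPM at the high dose, against 93.0, 93.8 and 88.7 CPM in vehicle. Its level was 1.95-fold higher (log2 0.96 ± 0.06, edgeR adjusted p = 9.04e-17). Neither gene's groups overlapped, and both stood apart from the medium dose too, at 49.3 to 51.9 CPM for MSMO1 and 93.8 to 102 CPM for FDFT1.

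DHCR7, which makes cholesterol in the last step of one route, was at 60.1, 61.0 and 57.4 CPM with Cinnamon at the high dose, against 39.5, 37.8 and 38.8 CPM in vehicle (log2 fold change 0.64 ± 0.06, edgeR adjusted p = 8.62e-11). MVD, a decarboxylase of the mevalonate pathway, was at 37.7, 28.9 and 28.1 CPM, against 19.8, 22.3 and 21.4 CPM in vehicle (log2 0.59 ± 0.18, edgeR adjusted p = 0.0142). The groups of MVD did not overlap, but the call was lost without Cinnamon high library 1 and without vehicle library 1 (highest adjusted p = 0.115). The upper pathway moved by like amounts: HMGCS1, which makes the precursor of mevalonate, rose by 0.57 ± 0.13 on the log2 scale, IDI1, the isopentenyl isomerase, by 0.62 ± 0.07, and SQLE, squalene epoxidase, by 0.55 ± 0.10. Further down, CYP51A1, lanosterol demethylase, rose by 0.59 ± 0.09 and LSS, lanosterol synthase, by 0.43 ± 0.05. The smallest called changes were those of NSDHL and SC5D, at 0.26 ± 0.09 each.

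The fatty acid branch rose less evenly. With Cinnamon at the high dose 6 of its 9 genes rose and none fell against vehicle, where 11.8% of all genes tested rose and 10.9% fell. The median log2 fold change of the branch was 0.32, against 0.00 for all genes tested. SCD, which puts the first double bond into fatty acids, was at 442, 493 and 476 CPM at the high dose, against 266, 262 and 270 CPM in vehicle. Its groups were far apart, at 1.78-fold (log2 0.84 ± 0.10, edgeR adjusted p = 6.74e-09). The desaturases of polyunsaturated fatty acids followed, FADS1 with 0.57 ± 0.04 and FADS2 with 0.55 ± 0.07 on the log2 scale. Their annotated spans overlap on opposite strands, so reads could be shared between them unless counting used strand, and the labels and notes do not give that setting. ACSS2, which makes acetyl-CoA from acetate, rose by 0.41 ± 0.06, the elongase ELOVL6 by 0.32 ± 0.09 and the phosphatidate phosphatase LPIN1 by 0.29 ± 0.06.

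The enzymes that build the fatty acid chain itself showed little change. FASN, fatty acid synthase, was at 371, 346 and 323 CPM with Cinnamon at the high dose, against 307, 293 and 324 CPM in vehicle, and the groups overlapped. Its log2 difference was 0.19 ± 0.08 against vehicle (edgeR adjusted p = 0.0796) and 0.30 ± 0.08 against the low dose, which was called (edgeR adjusted p = 0.00339). ACACA, acetyl-CoA carboxylase, had 159, 166 and 157 CPM at the high dose and 141, 139 and 142 CPM in vehicle (log2 0.21 ± 0.11, edgeR adjusted p = 0.17). ACLY, ATP citrate lyase, had 484, 465 and 449 CPM at the high dose and 505, 508 and 507 CPM in vehicle (log2 -0.11 ± 0.07, edgeR adjusted p = 0.328). Without the library that stands apart all 3 were called, with log2 changes of 0.17, 0.19 and -0.12.

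**Figure D3:**
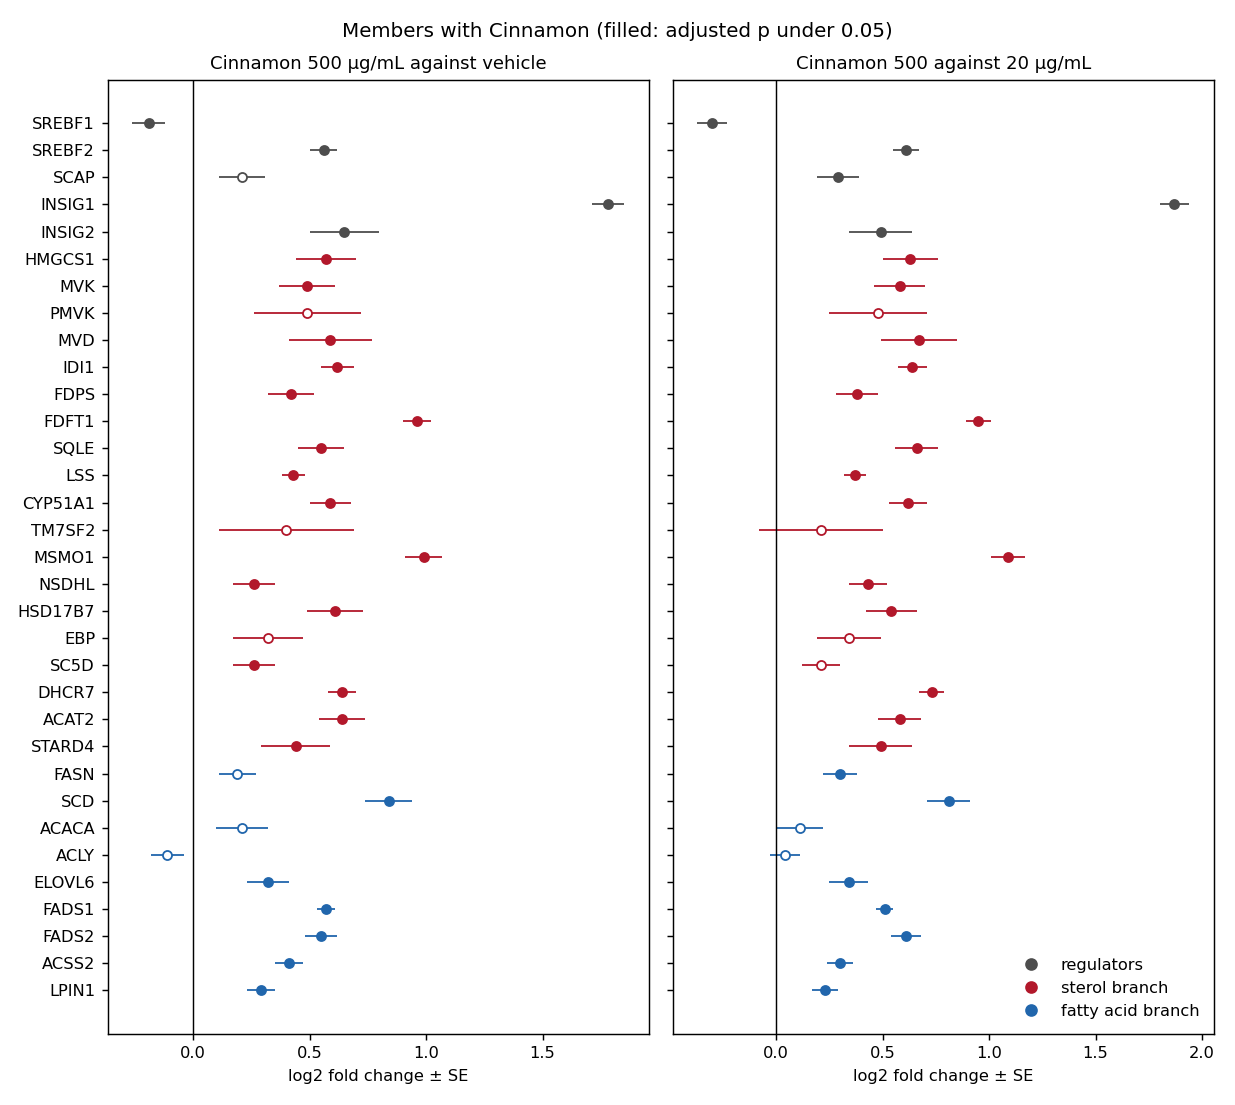
Log2 fold change ± SE of the 33 members with Cinnamon at 500 µg/mL against vehicle (left) and against 20 µg/mL (right), coloured by branch and filled where adjusted p was under 0.05 in the edgeR fit. INSIG1 stands at 1.78 and 1.87, MSMO1, FDFT1 and SCD come next, ACLY is near 0 and SREBF1 is below 0 in both panels.

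The branches were set side by side as the mean of log2(CPM + 1) over each branch's members in a library, less the vehicle mean. With Cinnamon at the high dose the sterol branch was at 0.52, 0.49 and 0.49 and the fatty acid branch at 0.33, 0.37 and 0.33, so the sterol branch was higher in each of the 3 libraries. The difference between branches was 0.16 ± 0.03 (SD, n = 3), against 0.00 ± 0.03 in vehicle. Because the members were chosen with results known, no test was made of it. The direction depends on how members are combined: with the median of the members' levels in place of the mean the difference was -0.09, and with the median of their changes, an alternative added after that value was seen, it was 0.19. At the medium and low doses it was 0.02 ± 0.04 and -0.02 ± 0.02.

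**Figure D4:**
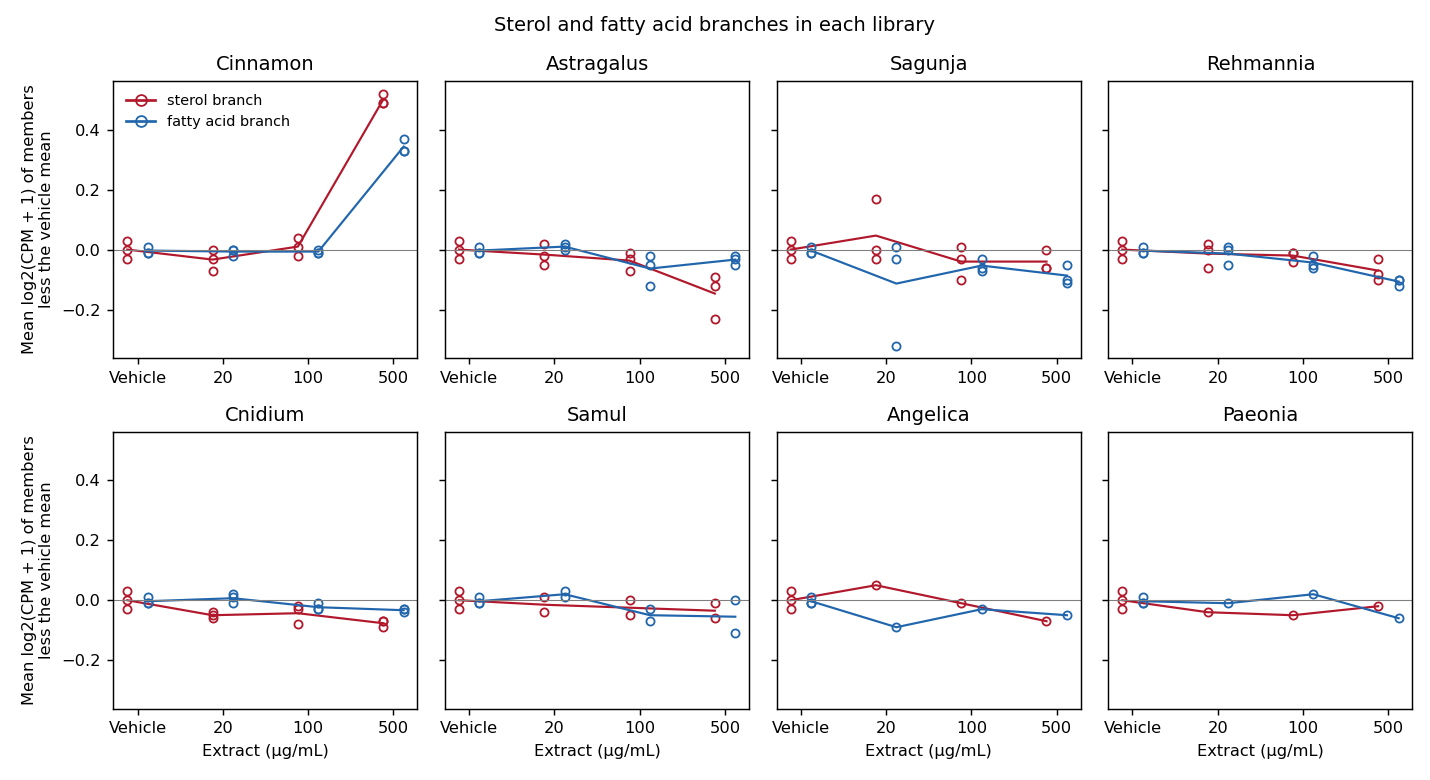
Mean log2(CPM + 1) of the sterol and fatty acid members in each library, less the vehicle mean, for 8 extracts from vehicle to 500 µg/mL; points are libraries and lines join group means (Angelica and Paeonia have 1 library a dose). Both branches are above 0.3 with Cinnamon at 500 µg/mL, and the sterol branch lies below 0 with Astragalus at 500 µg/mL, at -0.23, -0.12 and -0.09 in libraries 1, 2 and 3.

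Astragalus, which shares its set with Cinnamon, had lower INSIG1. At the high dose INSIG1 was at 86.4, 96.4 and 97.1 CPM, against 167, 169 and 161 CPM in vehicle, a log2 fold change of -0.82 ± 0.07 (n = 3 each; edgeR adjusted p = 4.98e-11). Its medium-dose libraries held 121, 124 and 127 CPM (log2 -0.41 ± 0.07, edgeR adjusted p = 0.000275) and its low-dose libraries 140, 138 and 150 CPM. The libraries of the 3 doses did not overlap, and the high dose was below the low dose by a log2 change of -0.61 ± 0.07 (edgeR adjusted p = 3.66e-07). DHCR7 also fell at the high dose, to 34.5, 31.9 and 30.6 CPM, against 39.5, 37.8 and 38.8 CPM in vehicle (log2 -0.25 ± 0.06, edgeR adjusted p = 0.011). These were the 2 called members at the high dose, where 4.45% of all genes were called. The mean of DHCR7 was below its vehicle mean of 38.7 CPM in every extract group but Cinnamon at the high dose. Its fall is therefore not particular to Astragalus. Without the library that stands apart, 10 members fell and 1 rose (12.6% of all genes), and 7 of the 10 were sterol genes, with MSMO1 at -0.25 and STARD4, a sterol carrier, at -0.34.

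SREBF2 was at 80.0, 77.1 and 75.2 CPM with Astragalus at the high dose, against 87.2, 84.7 and 89.2 CPM in vehicle, and did not pass (log2 -0.16 ± 0.06, edgeR adjusted p = 0.105; 0.00698 without the library that stands apart). SREBF1 was at 44.1, 47.1 and 46.2 CPM, against 43.7, 39.2 and 38.7 CPM in vehicle (log2 0.18 ± 0.07, edgeR adjusted p = 0.119). FASN was at 288, 281 and 275 CPM at the high dose, below the 293 to 324 CPM of vehicle without a call (log2 -0.12 ± 0.08, edgeR adjusted p = 0.489). The median log2 difference from vehicle was -0.17 over the sterol genes and -0.01 over the fatty acid genes, against 0.01 over all genes tested. The branch difference was -0.11 ± 0.06 (SD, n = 3), against 0.00 ± 0.03 in vehicle. By library it was -0.18, -0.09 and -0.07. Library 1 of this group stood further from its replicates (2.34 and 2.92 on the measure of replicate pairs above) than they did from each other (0.75). At the medium dose INSIG1 and FASN fell (3.94% of all genes called), with FASN at 241, 244 and 264 CPM. At the low dose SREBF1 rose, to 45.8, 51.0 and 47.5 CPM (3.67% called). Of the high dose against the low dose, INSIG1 was the 1 called member (0.28%). Equal replicate numbers deviated together in this comparison (r of 0.15 to 0.42), and with the replicate block 2 members were called, or 3 with the block within the set.

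The change from low to high dose was larger with Cinnamon than with Astragalus for 24 members and smaller for none that passed (14.4% of all genes called in this test of the difference). These included 15 sterol genes, 6 fatty acid genes and 3 regulators. For INSIG1 the difference of the 2 dose effects was 2.48 ± 0.10 on the log2 scale (edgeR adjusted p = 2.37e-22).

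With Sagunja a few members were called in both directions. At the high dose 2 rose and 6 fell against vehicle, where 17.1% of all genes were called, 8.94% higher and 8.11% lower. The 8 called of 33 members are not far from that share. INSIG2 was at 12.9, 15.1 and 12.7 CPM, against 7.69, 9.53 and 8.69 CPM in vehicle (log2 0.67 ± 0.15, edgeR adjusted p = 0.00136). Against the low dose, at 9.0, 10.8 and 12.3 CPM, INSIG2 was not called, with or without library 1 of that dose. Some groups of other extracts also lay above vehicle for INSIG2 without a call, such as Samul at the low dose (11.2 and 11.9 CPM), while others overlapped it. FADS1 was at 117, 116 and 115 CPM, against 93.8, 89.3 and 94.9 CPM in vehicle (log2 0.34 ± 0.04, edgeR adjusted p = 1.98e-07). FASN fell to 237, 234 and 256 CPM, against 307, 293 and 324 CPM in vehicle (log2 -0.33 ± 0.08, edgeR adjusted p = 0.00216). For INSIG2, FADS1 and FASN the high-dose libraries of Sagunja did not overlap those of vehicle. FADS2 fell by 0.32, DHCR7 by 0.27, ACLY by 0.25 and LSS by 0.15 on the log2 scale. The mean of ACLY was below its vehicle mean of 507 CPM in every extract group, so its fall is not particular to Sagunja. Nor is that of DHCR7, whose mean was below vehicle in every extract group but Cinnamon at the high dose. SREBF2 was at 75.5, 74.0 and 74.2 CPM, against 87.2, 84.7 and 89.2 CPM in vehicle (log2 -0.21 ± 0.06, edgeR adjusted p = 0.00773). INSIG1 was at 158, 170 and 163 CPM, overlapping vehicle, and SREBF1 at 34.4, 36.9 and 35.9 CPM was below the 38.7 to 43.7 CPM of vehicle without a call. FADS1 and FADS2 therefore went opposite ways here, whereas both rose with Cinnamon. Without the library that stands apart, 4 members rose and 12 fell (30.8% of all genes). Marker sums differed here too: that of the 5 fibroblast and smooth muscle markers was 4840 to 4880 CPM, against 6590 to 6620 CPM in vehicle, and that of the 12 astrocyte markers 7940 to 8260 CPM, against 9060 to 9330 CPM, and their part in these changes was not tested.

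The low dose of Sagunja rests on that library. In it PMVK, a kinase of the mevalonate pathway, was at 67.9 CPM, against 21.1 and 22.3 CPM in the other libraries of the group and 20.0, 20.3 and 19.7 CPM in vehicle. EBP, a sterol isomerase, was at 114 CPM in it, against 49.6 and 46.2 CPM in the others, and MVD at 52.7 CPM, against 20.0 and 18.2 CPM. HMGCS1 was low in it, at 28.2 CPM against 55.8 and 63.4 CPM, and SCD too, at 156 CPM against 273 and 287 CPM. With it, 12 members were called against vehicle (22.1% of all genes), and without it 4 (11.4%), namely INSIG1, NSDHL and ACLY lower and FADS1 higher. Of the high against the low dose 13 members were called with it (20.5%) and 6 without it (6.43%), and PMVK and EBP changed sign. SREBF1, at 34.4 to 36.9 CPM at the high dose and 42.0 to 44.9 CPM at the low dose, was lower both with it (log2 -0.29 ± 0.07, edgeR adjusted p = 0.00323) and without it (-0.28, edgeR adjusted p = 0.00786), but the call was lost when only the compared groups were fitted and with the replicate block within the set (highest adjusted p = 0.78). At the medium dose FADS1 rose and FASN fell (6.32% of all genes called).

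Rehmannia at the high dose had lower SREBF1 and SCD than at its low dose. SREBF1 was at 34.2, 33.7 and 36.2 CPM at the high dose, against 45.6, 46.8 and 44.6 CPM at the low dose, with the medium dose between at 41.9, 37.3 and 40.1 CPM. Its log2 change from low to high was -0.40 ± 0.07 (n = 3 each; edgeR adjusted p = 0.000343) and was called under all 14 alternatives run. SCD was at 215, 204 and 212 CPM at the high dose, against 265, 277 and 282 CPM at the low dose (log2 -0.39 ± 0.10, edgeR adjusted p = 0.0352). FADS1 fell by 0.19 and LSS by 0.18 on the log2 scale, so that 4 members were called between the doses, where 0.805% of all genes were. With library size alone or a total count of at least 10 this count was 1, and with single libraries left out 1 to 2, so that the calls of SCD, FADS1 and LSS were lost wherever it was 1. Against vehicle FADS1 was the 1 called member (2.37% of all genes), at 81.0, 80.0 and 81.7 CPM, against 93.8, 89.3 and 94.9 CPM in vehicle. Without the library that stands apart, 7 members fell against vehicle and none rose (7.62%), SREBF1 and SCD among them. INSIG1 was at 153, 153 and 151 CPM at the high dose and 152, 149 and 152 CPM at the low dose, SREBF2 at 85.7, 80.3 and 80.4 CPM and 84.3, 90.1 and 90.7 CPM, and FASN at 280, 276 and 282 CPM and 281, 302 and 304 CPM, none of them called. No member was called against vehicle at the medium dose (0.714% of all genes called, 1 member at an unadjusted p under 0.05) or at the low dose (0.993%, 3 members) with edgeR, and none with DESeq2.

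INSIG1 was the 1 called member with Cnidium at the high dose. There INSIG1 was at 130, 129 and 126 CPM, against 167, 169 and 161 CPM in vehicle (log2 -0.36 ± 0.07, n = 3 each; edgeR adjusted p = 0.00229), where 1.35% of all genes were called. The low-dose libraries, at 140, 144 and 139 CPM, also lay below vehicle, and the high dose did not differ from them past the threshold (log2 -0.14 ± 0.07, edgeR adjusted p = 0.949). SREBF2 was at 87.1, 83.9 and 83.9 CPM at the high dose, SREBF1 at 41.5, 39.2 and 39.5 CPM and FASN at 301, 286 and 295 CPM, each overlapping its vehicle libraries. No member was called by edgeR at the medium dose (0.297% of all genes, 2 members at an unadjusted p under 0.05), at the low dose (0.383%, 2 members) or between high and low (0.228%, 3 members), and DESeq2 called none in these 3 comparisons.

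Samul-tang is a formula of Rehmannia, Angelica, Cnidium and Paeonia. No member was called by edgeR against vehicle at the low dose (2.62% of all genes called), the medium dose (1.75%) or the high dose (4.13%), with 4, 3 and 4 members at an unadjusted p under 0.05. DESeq2 called 0, 1 and 2 members at these doses. Between high and low dose FADS1 was called (0.736%), at 82.1 and 84.9 CPM at the high dose, against 94.6 and 99.4 CPM at the low dose (log2 -0.22 ± 0.05, n = 2 each; edgeR adjusted p = 0.0401). This call was lost with library size alone, with a total count of at least 10, when only the compared groups were fitted, with the block within the set, and when any 1 of the 4 libraries was left out. INSIG1 was at 157 and 151 CPM at the high dose, SREBF2 at 78.1 and 89.3 CPM, SREBF1 at 33.2 and 42.8 CPM and FASN at 257 and 311 CPM. The 2 high-dose libraries lay far apart for SREBF1 and FASN, which limits what 2 libraries can show. The change of FADS1 from low to high dose differed between Sagunja and Samul by 0.34 ± 0.07 on the log2 scale (edgeR adjusted p = 0.00256), the 1 member called in that test (2.89% of all genes). In the test of Cnidium against Rehmannia no member was called by edgeR or DESeq2 (0.04% of all genes, 4 members at an unadjusted p under 0.05).

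For Angelica and Paeonia, with 1 library a dose, no test was run. No member differed from the vehicle mean by 0.5 or more on the log2 scale in any of the 6 libraries. Of all genes, 1.34%, 1.35% and 1.31% did with Angelica at the low, medium and high dose and 1.1%, 1.06% and 2.64% with Paeonia. INSIG1 was at 135, 133 and 121 CPM with Angelica at the low, medium and high dose, below the 161 to 169 CPM of vehicle, and at 150, 163 and 160 CPM with Paeonia. SCD was at 207 CPM with Paeonia at the high dose, below the 262 to 270 CPM of vehicle. These differences have no replicate check.

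Over the extracts with replicates, INSIG1 at the high dose was therefore ordered from Cinnamon (564 CPM on average) through Sagunja, Samul, Rehmannia and Cnidium to Astragalus (93.3 CPM). The libraries of Sagunja (158 to 170 CPM) overlapped those of vehicle, and those of Samul (151 and 157 CPM) overlapped those of Rehmannia (151 to 153 CPM). Neither Cnidium (126 to 130 CPM) nor Astragalus (86.4 to 97.1 CPM) overlapped any of these.

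Genes around the pathway were listed too, apart from the members. With Cinnamon at the high dose against vehicle, 7 of 13 tested genes of sterol uptake, export and storage rose and 1 fell, where 11.8% of all genes rose and 10.9% fell. NPC1, which lets cholesterol out of lysosomes, averaged 264 ± 9.55 CPM, against 157 ± 2.45 CPM in vehicle (SD, n = 3 each; log2 0.76 ± 0.09, edgeR adjusted p = 2.65e-08). VLDLR, a lipoprotein receptor, rose by 0.48 ± 0.10 on the log2 scale and SOAT1, which esterifies cholesterol, by 0.42 ± 0.10. Of 21 tested genes of other lipid synthesis 9 rose and none fell, among them ME1, malic enzyme, at 0.96 ± 0.08 and ACSL1, which activates fatty acids, at 0.44 ± 0.09.

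Of 12 genes that process or degrade the SREBP complex, 4 rose with Cinnamon at the high dose against vehicle and none fell, a share not far from the 22.8% of all genes called, with PGRMC1 at 0.33 ± 0.07, ERLIN2 at 0.23 ± 0.07 and SPRING1, which aids SREBP cleavage, at 0.23 ± 0.05 on the log2 scale. Of 8 genes of the sterol-sensing LXR receptors and their targets, 2 rose and 1 fell, likewise near that share. NR1H3, which encodes LXR alpha, averaged 3.10 ± 0.12 CPM, against 1.62 ± 0.25 CPM in vehicle (log2 0.95 ± 0.23, edgeR adjusted p = 0.00228), and MYLIP, an LXR target that degrades lipoprotein receptors, averaged 7.64 ± 0.62 CPM, against 11.1 ± 0.93 CPM (log2 -0.53 ± 0.09, edgeR adjusted p = 2.77e-05).

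Over the means of all 25 groups, the genes outside the pathway whose log2(CPM + 1) followed INSIG1 most closely were CDKN1A, TRAK1, SRXN1 and FBXO32 (Pearson r = 0.91 each) and FTH1 (0.90). The members ran from -0.49 for SREBF1 to 0.92 for MSMO1, with SREBF2 at 0.86, FASN at 0.46 and ACLY at 0.04. Without Cinnamon at the high dose the values were 0.63 for CDKN1A, 0.73 for TRAK1, 0.45 for SRXN1, 0.83 for FBXO32, 0.44 for FTH1, 0.51 for MSMO1 and 0.39 for SREBF2, so that much of the likeness rests on that group. Groups of a set share that set, and the values are a description.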

How the data were processed

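The authors deposited expected counts for each gene as RSEM estimates them. Per the submitters' processing notes, RSEM 1.3.3 and STAR 2.7.3a were the authors' counting and alignment tools on hg38 (GRCh38), with Trim Galore 0.6.5 and FastQC 0.11.9 for the reads, and per the labels' protocols the directional libraries were read as paired ends on an MGI sequencer. The annotation release and the strand setting of counting are not given in the sources used here. Of the table's 279 columns 60 were used, and 219 belonged to no sample described here. Values were rounded before fitting, of which 90.67% needed no rounding. Reads are split between similar genes by estimation, so close copies are less certain.

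Groups were taken from the sample labels. The vehicle is given as 0.1% DMSO as the sample labels have it, and the series description gives another concentration. A single model held the 54 libraries of the 19 groups that had 2 or more libraries, fitted in edgeR 4.0.16 in R 4.3.3 (filterByExpr, 17516 genes, TMM factors of 0.936 to 1.028, robust quasi-likelihood, 35 residual degrees of freedom, biological coefficient of variation 0.095), and p was adjusted by Benjamini-Hochberg over all genes tested in each comparison. There were 18 comparisons with vehicle, which share its 3 libraries, 6 of high with low dose and 3 of differences between dose effects. Totals of 20604792 to 29609799 counts set the precision. The alternatives were DESeq2 1.42.0, other scalings and filters, narrower fits, a replicate block and left-out libraries, and the steps were tested on simulated data.

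Values in every library are given for members called in a high-dose comparison with an absolute log2 fold change of at least 0.5, at most 6 per extract, and always for INSIG1, SREBF1, SREBF2 and FASN. Of each list of neighbouring genes at most 3 called genes per comparison are named. Other members given by library were chosen after their values were seen. The members, lists, rules and alternatives were chosen with earlier results of these data known. Whether equal replicate numbers pair libraries was checked by correlating their deviations from the group means (genes of at least 5 CPM). The 3 pairs were all over 0.1 in 2 of 24 comparisons, the high against the low dose of Astragalus and the medium dose of Sagunja against vehicle. Gene positions are from GENCODE release 29 and upstream sequences from RefSeq (GRCh38.p14). Python 3.11.15, pandas 2.3.3 and matplotlib 3.10.9 made the tables and plots.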

Additional observations from a re-analysis of the deposited data

Results flagged for a closer look

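The change from low to high dose differed between Cinnamon and Astragalus, by a test of the difference itself in the edgeR fit, for 7 members that were given by library. The differences of the 2 log2 changes were 2.48 for INSIG1, 1.3 for MSMO1, 1.07 for FDFT1, 0.95 for SCD, 0.89 for DHCR7, 0.79 for MVD and 0.71 for SREBF2, each positive because the change was larger with Cinnamon. The adjusted p ran from 2.37e-22 for INSIG1 to 0.0344 for MVD, and without library 1 of Sagunja at the low dose it was 5.93e-33 for INSIG1 and 7.44e-07 for MVD. In both extracts the doses share a set. MSMO1, FDFT1, SCD, DHCR7 and MVD were given by library for the size of their change with Cinnamon. A larger change there than with Astragalus was thus partly set by that choice.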

How the results depend on the processing

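For Cinnamon at the high dose the count of called members stayed within 1.5 times of 26 against vehicle and 27 against the low dose under every alternative run. Counts elsewhere were small and moved. Leaving out library 1 of Sagunja at the low dose gave, against vehicle, 2 called members for Cinnamon medium and 2 for low, 16, 10 and 4 for Sagunja high, medium and low, 11, 7 and 8 for Astragalus, 7 and 1 for Rehmannia high and medium, 3, 1 and 1 for Cnidium, and 5, 4 and 5 for Samul. Between high and low dose it gave 6 for Sagunja, 3 for Astragalus, 1 for Cnidium and 2 for Samul, and 1 for the difference between Cnidium and Rehmannia. PMVK (log2 0.14, adjusted p = 0.729) and EBP (0.02, adjusted p = 0.945) then changed sign between the Sagunja doses. Fitting only the compared groups gave 1 for Cinnamon medium, 19, 7 and 0 for Sagunja high, medium and low and 0 between its doses, 5, 8 and 11 for Astragalus, 13, 4 and 3 for Rehmannia, 5, 1 and 3 for Cnidium and 2 between its doses, and 1, 10 and 10 for Samul and 0 between its doses. It gave 0 for the difference between Sagunja and Samul and 1 for that between Cnidium and Rehmannia. DESeq2 gave 4 for Sagunja medium, 5, 4 and 2 for Astragalus high, medium and low and 2 between its doses, 4 for Rehmannia high, 2 and 1 for Samul high and medium, and 2 for the difference between Sagunja and Samul. Library size alone gave 5 and 1 for Sagunja high and medium, 1 and 1 for Astragalus high and medium, 0 for Rehmannia high and 1 between its doses, and 1 for Samul high and 0 between its doses. DESeq2's size factors in edgeR gave 4 for Sagunja medium and 3 for Rehmannia high. A total count of at least 10, used in place of the planned fit of all genes with a count, which could not be fitted, and so chosen after seeing the data, gave 1 for Sagunja medium, 0 for Rehmannia high and 1 between its doses, and 0 between the Samul doses. The cause of these moves was not tested, except that fewer libraries or groups enter some fits. The share of all genes called moved too. For Cinnamon high against vehicle it was 22.8% in the main fit and 35.7% without library 1 of Sagunja at the low dose. For most alternatives that share is not given here. The counts in this section therefore show how calls move, and not whether members stand out from other genes.

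The replicate block in the fit of all groups gave 2 called members between the Astragalus doses and 2 for Rehmannia high. With the block within the set the counts between high and low dose were 3 for Astragalus, 7 for Rehmannia, 3 for Cnidium, 0 for Sagunja and 0 for Samul, and it moved no other count of called members by over 1.5 times. The numbers paired libraries only between the Astragalus doses (r of 0.15 to 0.42) and for Sagunja medium against vehicle (0.18 to 0.25, 2 called members with the block and 2 without), among r of -0.39 to 0.42 in all.

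With each replicate left out in turn, counts ran from 0 to 3 for Sagunja medium, 4 to 22 for Sagunja low, 6 to 20 between the Sagunja doses, 1 to 2 for Astragalus high and 1 to 2 for medium, 0 to 1 for Astragalus low, 0 to 1 for Rehmannia high, 1 to 2 between the Rehmannia doses, 0 to 1 for Samul high and 0 to 1 between the Samul doses. Between the Sagunja doses PMVK then ran from -0.91 to 0.14 and EBP from -0.75 to 0.02. Where this leaves 1 Samul library, it is assumed to vary like the other groups.

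The difference between branches kept its sign with a pseudocount of 0.1 CPM and without STARD4 and LPIN1. With the median of the members' levels, as planned, it was -0.09 for Cinnamon, -0.35 for Sagunja, -0.18 for Astragalus and -0.06 for Cnidium at the high dose, so that the sign turned for Cinnamon and Sagunja. With the median of the members' changes, added after that was seen, it was 0.00 for Rehmannia and -0.02 for Cnidium and within the spread of the main value elsewhere. Leaving out single replicates gave -0.05 to -0.02 for Cnidium. Depth limits TM7SF2, near 1 CPM, and Samul, Angelica and Paeonia are limited by their 2 or 1 libraries.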

Other observations

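Fatty acid genes at the high dose did not follow 1 pattern across extracts. FADS1 was at 135, 139 and 135 CPM with Cinnamon and 117, 116 and 115 CPM with Sagunja, against 93.8, 89.3 and 94.9 CPM in vehicle, and it was at 81.0, 80.0 and 81.7 CPM with Rehmannia. It also lay below vehicle, without a call, with Cnidium (81.9 to 88.2 CPM) and Samul (82.1 and 84.9 CPM). The 1 library each of Angelica (85.4 CPM) and Paeonia (88.5 CPM) did too. FASN was at 237, 234 and 256 CPM with Sagunja, against 307, 293 and 324 CPM in vehicle, while SCD was at 215, 204 and 212 CPM with Rehmannia and 207 CPM in the 1 library of Paeonia, against 266, 262 and 270 CPM in vehicle. SCD also lay below vehicle with Sagunja (225 to 236 CPM), Samul (234 and 246 CPM) and the 1 library of Angelica (248 CPM). The SCD differences of Rehmannia, Sagunja and Samul from vehicle were not called. FASN lay below vehicle without a call with Astragalus (275 to 288 CPM) and Rehmannia (276 to 282 CPM) too.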
